A study of Mus musculus with 23 samples.

Results

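Messenger RNA was measured in microglia, the resident macrophages of the brain, of old and of young mice whose microglia had not been depleted. The libraries were taken by their group label, and 12 of the 23 libraries of the study belonged here, 7 of young and 5 of old animals. All 12 came from female C57BL/6 mice, labelled as microglia cells of the brain. The other 11 libraries came from animals in which the CSF1R inhibitor PLX5622, given in chow, had removed the microglia before new ones filled the brain, and they entered only 2 alternative fits. Per the labels' protocols, control animals ate AIN-76A chow without the drug. The age of the animals at either stage is not given in the sources used here, and the labels do not say whether a library pooled animals. The protocols describe CD11b magnetic selection followed by culture, and extraction of RNA from microglia sorted by flow cytometry, and the labels do not say which applies to each library. CD11b is carried by every myeloid cell of the brain and blood, so that monocytes, neutrophils and the macrophages of the brain's borders can be held by that selection, while a flow sort could remove them. The p-values below measure the spread between these libraries, since nothing in the labels says that each is a separate animal.

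Microglia depend throughout life on signalling through the receptor CSF1R and keep a set of homeostatic genes such as P2ry12, Tmem119 and Cx3cr1 switched on in the healthy brain. In ageing and disease, microglia are known to lower part of that set and to raise genes for lipid handling, phagocytosis, antigen presentation and the interferon response. Classical monocytes carry Ly6C and CCR2, and macrophages of the meninges and vessels carry CD206, which Mrc1 encodes, and CD163.

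Library size was even, with 43.66 to 50.98 M total counts (M stands for 1e06), and genes with a count numbered from 16399 to 22208. Young replicate 3 had the fewest of them and lay at 122.7 on the first principal component (26.3% of the variance), where the other young libraries lay between -55.1 and -25.4. Library titles carry numbers, and numbers 1 to 11 (3 young, 2 old) differed from numbers 12 to 24 (4 young, 3 old), for instance in Wdfy1, at 104 to 132 counts per M (CPM, scaled by TMM) in the lower and 43.0 to 56.5 CPM in the higher numbers. The run of numbers was therefore a term beside age. Microglial markers were high in all libraries, with P2ry12 lowest at 470 CPM in old replicate 3. Markers of T cells (Cd3e, Cd3d, Trac) stayed at or under 0.436 CPM and those of B cells (Cd79a, Ms4a1) at or under 0.406 CPM. The neuronal markers Snap25 and Syt1 were at or under 1.77 CPM, while the astrocyte gene Slc1a3 reached 169 CPM and the haemoglobin gene Hba-a1 24.4 CPM. The monocyte list, 20 genes including Ly6c2 and Ccr2, summed to 444 to 2383 CPM in young libraries, with young replicate 3 the highest. In old replicates 1 to 5 the same sum was 903, 3672, 7847, 1773 and 3932 CPM. By this sum old replicates 3, 5 and 2 lay above every young library, and old replicates 4 and 1 within their range. Single genes of the list could differ from the sum. Old replicate 4 exceeded every young library in Ly6c2 (16.01 against at most 7.90 CPM), Chil3, S100a6, Napsa, Klra2, Ace and Ms4a4c. In Ccr2 it did not (44.2 against at most 46.6 CPM). Young replicate 7 had a sum of 1589 CPM but the lowest Ly6c2 of the young libraries, at 0.242 CPM. In that library Ccr2, Chil3 and Ms4a4c stood at 7.0, 5.22 and 10.3 CPM, so that other members made most of the sum. In young replicates 4 to 7 the sum was 827, 1123, 1431 and 1589 CPM. Ly6c2 stood there at 1.24, 0.753, 0.774 and 0.242 CPM. In such bulk libraries, more cells of a type and more RNA per cell cannot be told apart.

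**Figure D1:**
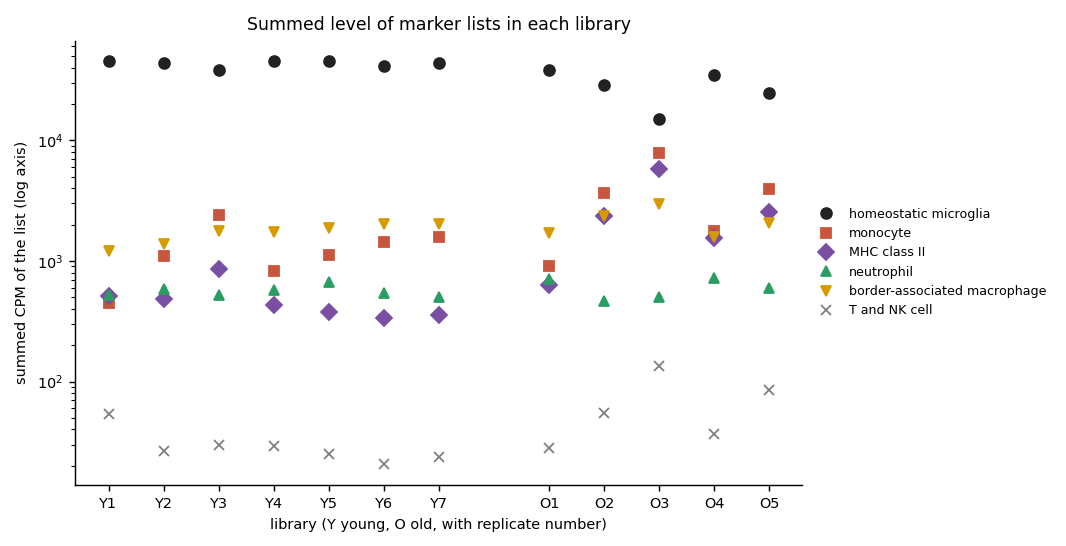
Summed CPM of 6 marker lists in each library (log axis), young libraries on the left (Y) and old libraries on the right (O), each with its replicate number. In old replicate 3 the homeostatic sum was lowest, at 14919 CPM, and the monocyte and MHC class II sums were highest, at 7847 and 5741 CPM.

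Of 15987 genes tested with edgeR's quasi-likelihood test, 599 (3.75%) had an adjusted p under 0.05 and are said to be called. Of these, 480 (3.00% of the genes tested) were higher and 119 (0.744%) lower in old microglia. Rises were larger than falls: 338 of the rises and 27 of the falls reached 2-fold, and the median change was 1.77 on the log2 scale among rises and -0.64 among falls, with -0.01 over all genes tested. Complete separation of the groups was rarer than calls. All 5 old libraries lay above all 7 young ones in 240 genes (1.5%), 168 of which were called, and below them in 149 genes (0.932%), 67 of which were called. The number of calls depended on single libraries. It ran from 61 without young replicate 5 to 1439 without old replicate 1, and of the 12 fits that left out 1 library only that without young replicate 1 (548) stayed within 1.5 times of 599.

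The largest falls included genes of secreted and signalling proteins. Cd5l (ENSMUSG00000015854.7, chr3:87357881-87371073, GRCm38), which encodes a secreted scavenger-receptor protein of tissue macrophages, was measured at 20.8, 34.4, 25.0, 19 and 30.5 CPM in old replicates 1 to 5. In young libraries it ran from 62.5 to 284 CPM with a median of 170. Every old library lay below every young library, and the difference came to -2.62 ± 0.30 on the log2 scale (SE, edgeR adjusted p 0.00437). Young libraries of numbers 12 to 24 were the higher ones, at 170 to 284 CPM against 62.5 to 136 CPM in numbers 1 to 11, and the fall was -1.89 in the lower and -3.16 in the higher numbers.

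Rgs7bp (ENSMUSG00000021719.9, chr13:104945904-105054930), whose protein anchors regulators of G-protein signalling at the membrane, stood at 2.58, 2.57, 2.86, 2.82 and 1.87 CPM in old replicates 1 to 5 and at 6.62 to 20.2 CPM (median 13.8) in young libraries. The old libraries were tightly grouped and all below the young ones, with a change of -2.34 ± 0.24 (SE, edgeR adjusted p 0.00301). Igsf10 (ENSMUSG00000036334.12, chr3:59316735-59344394), a member of the immunoglobulin superfamily, stood at 5.36, 7.49, 4.01, 5.72 and 6.00 CPM in old and 10.4 to 27.1 CPM (median 20.8) in young libraries. It changed by -1.76 ± 0.24 (SE, edgeR adjusted p 0.00746), again with no overlap of the groups. Cd5l, Rgs7bp and Igsf10 were called in each of the 12 fits that left out 1 library.

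Igf1 (chr10:87858265-87937042), the insulin-like growth factor that microglia supply to neighbouring cells, was measured at 28, 48.4, 14.0, 24.3 and 24.7 CPM in old replicates 1 to 5. Young libraries held 45.0 to 172 CPM, with a median of 105. The highest old library reached into the range of the young ones, and the change was -1.75 ± 0.40 (SE, edgeR adjusted p 0.0363). Within numbers 1 to 11 the change was -0.49 and within numbers 12 to 24 it was -2.72. Bmp1, which encodes a procollagen-processing metalloprotease, fell from 20.7 ± 5.30 (SD, n = 7) to 7.39 ± 2.67 CPM (SD, n = 5), and Nid2, a basement membrane protein, from 22 ± 2.4 to 10.9 ± 4.02 CPM, with edgeR adjusted p of 0.0212 and 0.0308. Neither gene overlapped between the groups.

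The other genes with the largest falls overlapped between young and old. They were Camk2b, a calmodulin-dependent kinase subunit (-1.40), Stag3, a meiotic cohesin subunit (-1.39), Zfp827 (-1.25), Adora1, the adenosine A1 receptor (-1.05), Tmem44 (-1.01) and Erdr1 (-1.36). Their edgeR adjusted p lay between 0.0421 and 0.0497. Erdr1 lies in a region shared by the sex chromosomes, so that its count is uncertain. Old replicate 2 stood at 9.32 CPM of Camk2b while the other old libraries held 0.722 to 1.83 CPM.

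**Figure D2:**
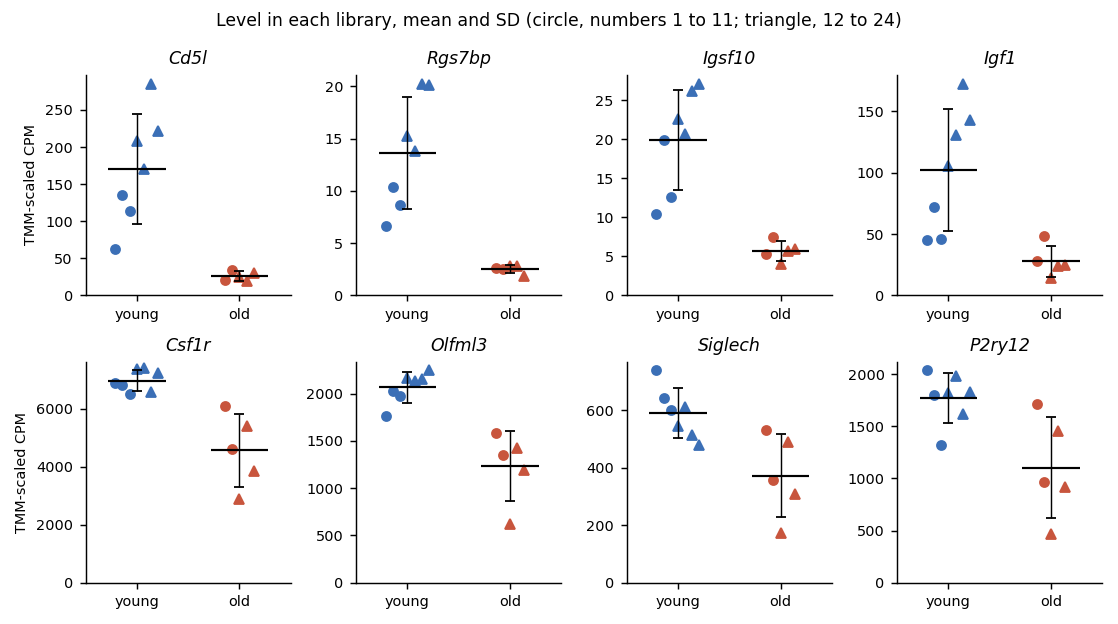
CPM of 8 genes in each of the 7 young and 5 old libraries, with the mean (bar) and SD (whiskers); circles are library numbers 1 to 11 and triangles numbers 12 to 24. Cd5l, Rgs7bp, Igsf10, Csf1r and Olfml3 show no overlap between the groups, and Siglech and P2ry12, which were not called, overlap.

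All 20 genes of the homeostatic microglia list had a log2 fold change below 0, with a median of -0.62, and 2 of the 20 were called by edgeR (12 by DESeq2, 18 by voom). Over all 15987 genes DESeq2 called 1680 and voom 4048, the background for their counts here and below. Csf1r, the growth factor receptor on which microglia depend and the target of PLX5622, was measured at 6096, 4615, 2907, 5398 and 3844 CPM in old replicates 1 to 5 and at 6502 to 7402 CPM (median 6910) in young libraries. No old library reached the young range, and the change was -0.62 ± 0.15 (SE, edgeR adjusted p 0.0441). Olfml3 (chr3:103722222-103738001), a secreted protein that marks microglia, stood at 1586, 1355, 622, 1422 and 1194 CPM against 1760 to 2255 CPM (median 2136) in young. Its change was -0.75 ± 0.18 (SE, edgeR adjusted p 0.0435), with no overlap.

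Most of the defining markers did not pass the test. Fcrls, a microglial Fc receptor-like gene, was at -0.77 ± 0.20 (SE, edgeR adjusted p 0.0502) and Siglech, a sialic acid-binding receptor, at -0.67 ± 0.21 (adjusted p 0.0910). P2ry12, the ADP receptor that guides microglial processes, was measured at 1710, 963, 470, 1457 and 921 CPM in old and 1321 to 2039 CPM (median 1816) in young libraries. Old replicates 1 and 4 lay within the young range and the other old libraries below it, at a change of -0.69 ± 0.25 (SE, edgeR adjusted p 0.141). Cx3cr1, the fractalkine receptor, Sall1, a transcription factor of microglial identity, and Tmem119 were at -0.57, -0.55 and -0.35, with edgeR adjusted p of 0.148, 0.248 and 0.318.

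The homeostatic sum and the monocyte sum ran in opposite order across the old libraries. In old replicates 1 to 5 the 20 homeostatic genes summed to 38363, 28656, 14919, 34978 and 24472 CPM, against 38121 to 45563 CPM in young libraries. Old replicates 1 and 4, with the lowest monocyte sums among the old, had the highest homeostatic sums. Old replicates 3 and 5 were then left out, a choice made after the values were seen. The median of the list was -0.31 and 0 of its 20 genes were called, with Csf1r at -0.36 (edgeR adjusted p 0.195). That fit called 21 of all 16983 genes, so that 0 of 20 does not set the list apart. The same background holds for the other lists below. The part of the other cells in the homeostatic difference was not tested.

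Among 20 transcription factors of microglia edgeR called 1, a share near the 3.75% of all genes. The gene was Bhlhe40, a basic helix-loop-helix repressor. It stood at 27.8, 106, 275, 71.4 and 150 CPM in old replicates 1 to 5 and at 15.9 to 36.2 CPM (median 27.9) in young libraries, a change of 2.15 ± 0.41 (SE, edgeR adjusted p 0.0211). Old replicate 1 lay within the young range. The median of the list was -0.12. DESeq2 called 5 of the 20 and voom 11, against 1680 and 4048 of all 15987 genes.

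The largest rises included genes of blood-borne myeloid cells, and they differed widely in size between the old libraries. Ly6c2 (ENSMUSG00000022584.14), which encodes a surface antigen of classical monocytes, stood at 7.65, 87.6, 379, 16 and 209 CPM in old replicates 1 to 5. Young libraries held 0.242 to 7.90 CPM with a median of 0.910. Old replicate 1 alone lay within the young range, and the change was 6.44 ± 1.17 (SE, edgeR adjusted p 0.0180). Slfn4 (chr11:83175186-83190216), a Schlafen family gene of myeloid cells, stood at 11.6, 67.6, 647, 43.5 and 401 CPM against 1.15 to 9.46 CPM (median 3.93). All old libraries lay above the young ones, at 5.6 ± 1.04 (SE, edgeR adjusted p 0.0188). Both genes have close relatives in the genome, so that their counts are uncertain.

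Atp8b4 (ENSMUSG00000060131.11, chr2:126320973-126500674), a member of the phospholipid flippase family, was measured at 3.81, 29.9, 79.8, 12.7 and 48.0 CPM in old and 0.553 to 2.57 CPM (median 0.950) in young libraries. The groups did not overlap, and the change was 4.92 ± 0.68 (SE, edgeR adjusted p 0.00746). Chil3, a chitinase-like protein secreted by monocytes and macrophages, stood at 70.8, 540, 759, 161 and 517 CPM, while young libraries held 3.35 to 154 CPM (median 6.01), with young replicate 3 at the top. Old replicate 1 lay within that range and the other old libraries above it. The change was 4.86 ± 1.15 (SE, edgeR adjusted p 0.0386). The other genes with the largest rises were F10, which encodes coagulation factor X (5.74), Gpr171 (5.20), B3gnt5, a glycolipid glycosyltransferase (5.19), Plbd1 (4.86), Spon1 (4.75), Dpp4, a dipeptidyl peptidase (4.75), Runx3, a transcription factor of leukocytes (4.66), and Papss2, a sulfate donor synthase (4.65). Their edgeR adjusted p lay between 0.0215 and 0.0478. In each of these 8 genes old replicate 3 was the highest old library and old replicate 1 the lowest.

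That order held for most rises. Of the 480 genes called higher, 410 (85.4%) were highest among the old libraries in old replicate 3, against 29.6% of all genes tested, and 355 (74.0%) were lowest in old replicate 1, against 28.5%. Of the 119 genes called lower, 81 (68.1%) were lowest in old replicate 3, against 28.9%. Among genes of a mean of at least 5 CPM, the range over the old libraries was under 2-fold in 99 of 370 rises (26.8%), in 72 of 103 falls (69.9%) and in 79.6% of all genes. It was over 10-fold in another 99 rises (26.8%), in 1 fall and in 1.75% of all genes.

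**Figure D3:**
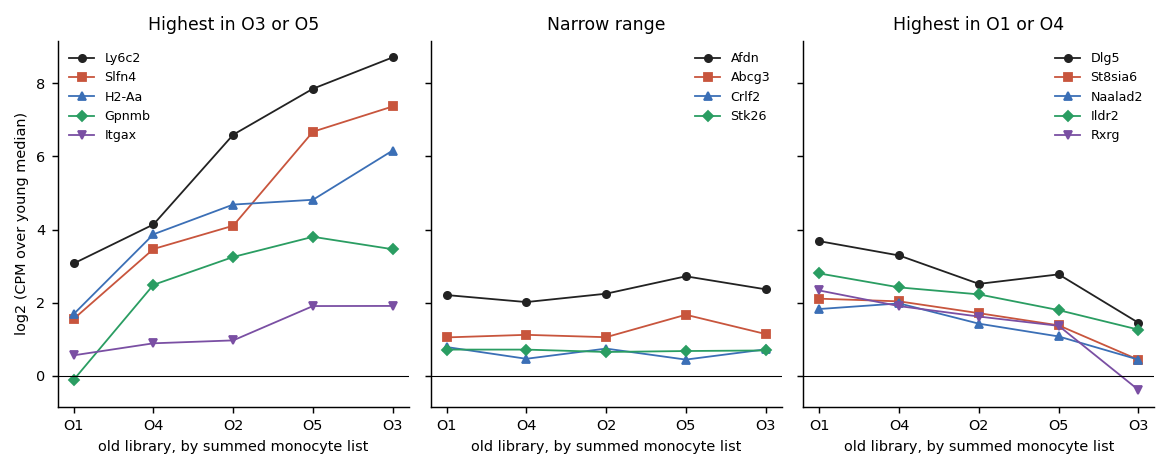
Log2 of the CPM over the young median in each old library, with the old libraries in order of their summed monocyte list, for 5 genes highest in old replicate 3 or 5, 4 genes of narrow range and 5 genes highest in old replicate 1 or 4. The genes on the left climb with the monocyte sum, except that Gpnmb is higher in old replicate 5 than in 3. Those on the right descend, except that Naalad2 is higher in old replicate 4 than in 1 and Dlg5 in 5 than in 2. Those in the middle vary less, with Afdn and Abcg3 highest in old replicate 5.

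Lists of blood and border myeloid cells held larger shares of rises than the 3.00% of all genes. Of 20 monocyte genes, 14 were called higher and all 20 were above 0, with a median of 3.43. Beside Ly6c2 and Chil3, Ccr2, the receptor by which monocytes leave the marrow, stood at 17.1, 115, 564, 44.2 and 210 CPM in old and 4.23 to 46.6 CPM (median 7.80) in young libraries. Old replicates 1 and 4 lay within the range of the young, whose highest value was again that of young replicate 3, and the change was 4.16 ± 0.98 (SE, edgeR adjusted p 0.0383). S100a6, a calcium-binding protein, and Napsa, an aspartic protease, rose by 4.57 and 4.59. Klra2, a lectin-like receptor, and Ace, the angiotensin-converting enzyme of patrolling monocytes, rose by 3.88 and 3.36 with no overlap of the groups, and Ms4a4c rose by 3.15. The count of called genes fell from 14 to 1, Klra2, without old replicates 3 and 5, where the median was 1.88. That fit called 21 of all 16983 genes. Leaving out 1 library gave between 1 call, without young replicate 4, and 19, without old replicate 1. Those fits called 80 of all 15802 and 1439 of all 16414 genes.

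Of 19 neutrophil genes listed 16 were tested and 6 called, all higher, with a median of 1.94 over those tested. The expression filter can keep a gene through its old libraries alone, which can raise the median and the share called. Padi4, the arginine deiminase that neutrophils use to form extracellular traps, stood at 2.68, 6.56, 16, 4.29 and 12.6 CPM in old and 0.215 to 0.867 CPM (median 0.352) in young libraries. Its groups did not overlap, and the change was 4.23 ± 0.51 (SE, edgeR adjusted p 0.00595). Mmp8, neutrophil collagenase, and Cxcr2, a chemokine receptor of neutrophils, rose by 3.13 and 2.72, also without overlap. S100a8 rose by 1.83 ± 0.45 (SE, edgeR adjusted p 0.0446), while its partner S100a9 was at 1.84 ± 0.47 (adjusted p 0.0521). The defining surface marker Ly6g was at 0.310 to 0.974 CPM in old libraries and at 0 to 0.215 CPM in young ones, a change of 3.53 ± 0.97 (SE, adjusted p 0.0669). The summed level of the list overlapped between the groups, at 504 to 664 CPM in young and 466 to 720 CPM in old libraries.

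In the border-associated macrophage list, 6 of 17 genes were called higher, with a median of 1.31, but the markers that define these cells were not among them. Mrc1 was at 0.68 (edgeR adjusted p 0.140), Cd163 at 0.73 (0.264), Lyve1 at 0.50 (0.623) and Pf4 at 1.23 (0.160). The called members were led by F13a1, which the monocyte list also holds, Clec10a, Clec12a (2.66) and Ms4a7 (2.64). Siglec1, the sialoadhesin of perivascular macrophages, rose by 1.36, and the chemokine Ccl8 by 1.97 with no overlap of the groups. Of 18 dendritic cell genes listed 16 were tested, and 5 were called higher. Cd209a, a lectin of monocyte-derived dendritic cells, stood at 2.35, 2.59, 7.03, 3.75 and 6.09 CPM in old and at most 0.617 CPM in young libraries, a change of 4.83 ± 0.70 (SE, edgeR adjusted p 0.00796). Flt3, a receptor of dendritic cell precursors, rose by 3.38. Without old replicates 3 and 5, 1 of 16 neutrophil genes, Padi4, and no border-associated macrophage or dendritic cell gene was called, with medians of 2.18, 1.11 and 0.90. Over all genes that fit called 21 of 16983.

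The genes of MHC class II, which present antigen to CD4+ T cells, split by role. The alpha and beta chains, the invariant chain and the transactivator rose, while the genes of the peptide-loading proteins H2-DM and H2-O were not called. H2-Aa stood at 50.9, 405, 1127, 231 and 443 CPM in old replicates 1 to 5 and at 6.13 to 108 CPM (median 15.8) in young libraries. Only old replicate 1 lay within the young range, and the change was 4.58 ± 0.91 (SE, edgeR adjusted p 0.0221). H2-Eb1 rose by 4.54, H2-Ab1 by 3.66, Cd74, the invariant chain, by 3.70 and Ciita, the coactivator of the family, by 4.64. Ciita was measured at 0.873, 8.90, 33.0, 4.99 and 14.3 CPM in old and 0.0881 to 1.28 CPM (median 0.402) in young libraries, again with old replicate 1 alone inside the young range.

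H2-DMa, H2-DMb1, H2-DMb2 and H2-Oa were at 0.06, 0.24, 0.37 and -0.15, with edgeR adjusted p from 0.218 to 0.634. The direction of H2-DMa turned with upper-quartile scaling (-0.0047). H2-DMa stood at 99.5 to 109 CPM in old and 91.6 to 109 CPM in young libraries. In all, 5 of 13 class II genes were called, against 3.75% of all genes, and the median was 0.24. Without old replicates 3 and 5, where 21 of all 16983 genes were called, no gene of the list was. H2-Aa was then at 3.21 (edgeR adjusted p 0.103). The 13 genes summed to 636, 2364, 5741, 1545 and 2525 CPM in old replicates 1 to 5, the same order of libraries as in the monocyte sum, against 336 to 864 CPM in young libraries.

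Promoters of MHC class II genes are known for an X box and a Y box at a fixed spacing, bound by the RFX complex and by NF-Y, which CIITA joins. They are shown because some called and some uncalled members of the family carry the same arrangement. In RefSeq promoters of GRCm38.p6 (250 bases before to 50 after each start), 9 genes of the class II list had 10 promoters. Of the called genes only H2-Aa and H2-Eb1 were among them, and H2-Ab1, Cd74 and Ciita could not be searched. The letters AAC, 26 or 27 bases of any kind and GATTGG, searched on both strands, were found in 5 of the 10, and the spacing was read from these promoters. The promoters of H2-DMa, H2-Ob, Rfx5 and Rfxank, genes that were not called, did not hold them. Capitals mark AAC and GATTGG, and each sequence runs along the gene's strand.
H2-Aa (chr17:34287861-34287908, minus strand): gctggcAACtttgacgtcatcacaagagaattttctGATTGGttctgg
H2-Eb1 (chr17:34305772-34305818, plus strand): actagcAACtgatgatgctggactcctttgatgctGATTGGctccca
H2-DMb1 (chr17:34153093-34153140, plus strand): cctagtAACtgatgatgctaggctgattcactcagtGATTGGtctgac
H2-DMb2 (chr17:34145122-34145169, plus strand): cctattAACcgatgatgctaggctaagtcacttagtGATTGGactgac
H2-Oa (chr17:34092299-34092346, plus strand): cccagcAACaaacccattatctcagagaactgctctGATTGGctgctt
GATTGG began 49 bases before the start of H2-Aa, 60 before H2-Eb1, 62 before H2-DMb1, 91 before H2-DMb2 and 44 before H2-Oa. The pair was present in 0.505% of all 32851 promoters and in 2 of 442 promoters of genes called higher, and GATTGG alone, which is part of the pair, in 16.1% of all. H2-Aa and H2-Eb1, which rose by 4.58 and 4.54, and H2-DMb1, H2-DMb2 and H2-Oa, which were not called, thus shared the letters searched.

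Of 23 genes of the disease-associated microglia list, 7 were called higher and 2 lower, and the median was -0.01. Over all genes 3.00% were called higher and 0.744% lower. Gpnmb, a transmembrane glycoprotein of lipid-laden macrophages, stood at 135, 1378, 1595, 813 and 2019 CPM in old and 40.0 to 299 CPM (median 145) in young libraries. Old replicate 1 lay near the young median and the other old libraries above all young ones, at a change of 2.94 ± 0.57 (SE, edgeR adjusted p 0.0211). Lgals3, which encodes galectin 3, rose by 2.42 and the fatty acid-binding protein gene Fabp5 by 1.92. Cybb, the catalytic subunit of the phagocyte NADPH oxidase, stood at 188, 405, 663, 282 and 592 CPM in old and 112 to 170 CPM (median 137) in young libraries, with no overlap and a change of 1.53 ± 0.24 (SE, edgeR adjusted p 0.0108).

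Smaller rises were more even. Itgax, which encodes CD11c, stood at 110, 145, 279, 138 and 279 CPM in old against 54.1 to 91.8 CPM (median 74.2) in young libraries, a change of 1.30 ± 0.22 (SE, edgeR adjusted p 0.0151). Axl, a receptor for apoptotic cells, stood at 401, 494, 519, 359 and 560 CPM against 223 to 327 CPM (median 300), and Clec7a, the beta-glucan receptor dectin-1, at 318, 425, 393, 318 and 460 CPM against 198 to 297 CPM (median 250). In these 3 genes all old libraries lay above all young ones, and Axl and Clec7a changed by 0.72 ± 0.13 and 0.63 ± 0.12 (SE, edgeR adjusted p 0.0167 and 0.0199). The falls in the list were Igf1 and Ctsl, the cathepsin L gene, which changed by -0.66 ± 0.13 (SE, edgeR adjusted p 0.0217) without overlap. Apoe, the main apolipoprotein of the brain, was at 0.46 ± 0.27 (adjusted p 0.362). Without old replicates 3 and 5, where 21 of all 16983 genes were called, the list had no call and a median of 0.05. Leaving out 1 library gave 1 to 9 calls, the fewest without young replicate 5, where 61 of all 15818 genes were called.

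All 32 interferon response genes lay above 0, with a median of 0.69, and 1 was called by edgeR (18 by DESeq2, 31 by voom). Of all 15987 genes DESeq2 called 1680 and voom 4048. Cmpk2, a nucleotide kinase induced by interferon, stood at 22.7, 25.2, 50.5, 32.5 and 44.6 CPM in old and 9.96 to 21.7 CPM (median 15.6) in young libraries. Its groups did not overlap, at 1.03 ± 0.21 (SE, edgeR adjusted p 0.0249). Oas3 and Ifitm3, antiviral effectors, were at 2.13 and 1.62 (edgeR adjusted p 0.0526 and 0.0521), and Irf7 and Isg15, a transcription factor and a ubiquitin-like protein of the response, at 1.29 and 0.94 (0.106 and 0.168). The runs differed in sign: the median of the list was -0.09 within numbers 1 to 11 and 1.23 within numbers 12 to 24, where Isg15 was at -0.28 and 1.69 and Irf7 at -0.07 and 2.10. Without old replicate 1, 16 of the 32 genes were called, where 1439 of all 16414 genes were. Without young replicate 3, 5 were called, where 1087 of all 15831 genes were. Without old replicates 3 and 5 no gene was, with a median of 0.25, where 21 of all 16983 genes were called. Among 17 interferon-inducible GTPases, Ifi47 (2.57) and Gvin1 (0.88) were called higher, where 3.00% of all genes were. The median of that list was 0.45, with -0.29 within numbers 1 to 11 and 0.83 within numbers 12 to 24. In the MHC class I list, 1 of 20 genes was called, a share near the 3.75% of all genes. The list median was -0.03 within numbers 1 to 11 and 0.51 within numbers 12 to 24. The called gene was the transactivator Nlrc5, at 54.6, 54.8, 112, 71.6 and 93.5 CPM in old libraries. Young libraries held 34.5 to 53.3 CPM (median 45.7), and the change was 0.82 ± 0.19 (SE, edgeR adjusted p 0.0363).

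**Figure D4:**
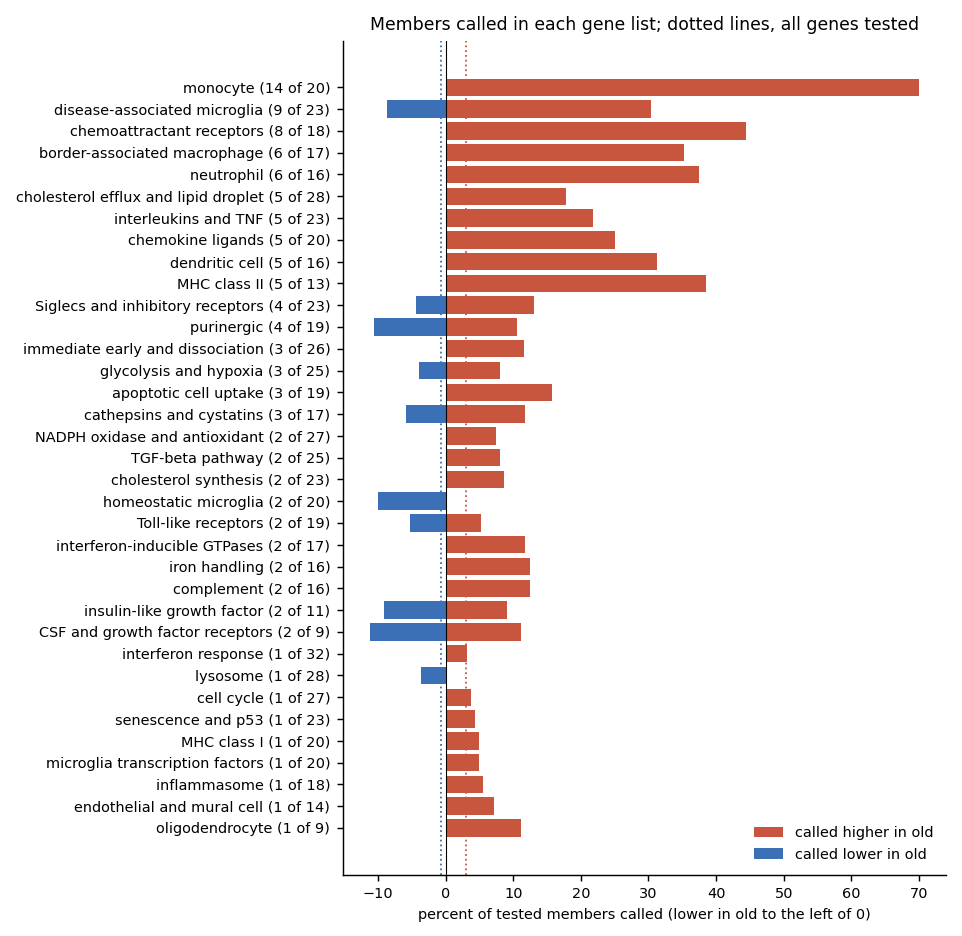
Percent of the tested members of each gene list called higher (right) or lower (left) in old microglia, with the number called of the number tested; lists without a call are left out. Dotted lines mark 3.00% higher and 0.744% lower over all genes tested, and the monocyte list, with 14 of 20, lies farthest from them.

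Of 20 chemokine ligands, 5 were called, all higher, Ccl8 among them, where 3.00% of all genes were called higher. Cxcl13, a ligand that attracts B cells, stood at 14.4, 10.9, 5.30, 7.87 and 9.58 CPM in old and 1.03 to 3.76 CPM (median 1.93) in young libraries. Its groups did not overlap, old replicate 1 was highest, and the change was 2.16 ± 0.29 (SE, edgeR adjusted p 0.00746). Ccl7, a ligand of monocyte receptors, rose by 2.03 without overlap and was highest in old replicate 3. Ccl2, the main ligand of CCR2, and Cxcl16 rose by 0.60 and 0.50, with ranges over the old libraries of 76.2 to 112 and 255 to 401 CPM. Of 18 chemoattractant receptors, 8 were called higher, Ccr2 and Cxcr2 among them, against the same 3.00%. Fpr2, a formyl peptide receptor, was measured at 1.42, 1.70, 9.38, 1.5 and 4.67 CPM in old and at most 0.796 CPM in young libraries, a change of 3.66 ± 0.59 (SE, edgeR adjusted p 0.0115). Ccr7, which guides dendritic cells to lymph nodes, rose by 3.37 and Ccr1 by 2.65. Without old replicates 3 and 5 the ligands held 1 call, Cxcl13, and the receptors none, where 21 of all 16983 genes were called.

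Among 23 interleukins, TNF family members and their regulators, 5 were called higher, where 3.00% of all genes were. Osm, the cytokine oncostatin M, stood at 202, 234, 234, 268 and 287 CPM in old and 151 to 191 CPM (median 174) in young libraries. All old libraries exceeded the young ones, at 0.50 ± 0.07 (SE, edgeR adjusted p 0.00746), and the change was 0.49 and 0.51 in the lower and higher library numbers. Il18bp, the decoy that binds interleukin 18, rose by 1.56 without overlap. Il1r2, the decoy receptor of interleukin 1, and Tnfsf8 rose by 3.35 and 1.46. In innate sensing, the endosomal RNA sensor Tlr8 rose from 3.45 to 5.59 CPM in young to 7.61, 39.5, 102, 15.8 and 46.3 CPM in old replicates 1 to 5 (3.10 ± 0.46 SE, edgeR adjusted p 0.00796). Unc93b1, the chaperone that carries such receptors to endosomes, fell by 0.34 on the log2 scale, also with no overlap (adjusted p 0.0361). These were the only edgeR calls among 19 genes of the Toll-like receptor list. Nlrc4 (3.10) was the only one among 18 inflammasome genes, a share near the 3.75% of all genes.

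Complement genes lay on both sides of 0. C3, the central component, rose by 1.29, and Cfp, properdin, by 3.24 (edgeR adjusted p 0.0317 and 0.0421). The subunits of the initiating complex were below 0 within both runs, with all old libraries below all young ones, but missed the threshold: C1qa, C1qb and C1qc were at -0.57, -0.44 and -0.52, with edgeR adjusted p of 0.0598, 0.0617 and 0.0764. C1qa stood at 3567, 3069, 1528, 2929 and 2338 CPM in old and 3645 to 4101 CPM (median 4000) in young libraries. By edgeR 0 of 8 Fc receptor genes were called, with 4 at an unadjusted p under 0.05. DESeq2 called 2 and voom 5, against 1680 and 4048 of all 15987 genes.

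In lipid handling, 5 of 28 genes of cholesterol efflux and lipid droplets were called, Fabp5 among them, and 2 of 23 genes of cholesterol synthesis and uptake. All were higher, where 3.00% of all genes were called higher. Dgat1, which makes triglyceride for lipid droplets, rose from 13.9 to 17.4 CPM in young to 17.7, 35.0, 49.4, 25.5 and 34.9 CPM in old libraries (0.98 ± 0.18 SE, edgeR adjusted p 0.0182). Nr1h3, the oxysterol receptor LXR alpha, rose by 2.96 and Apoc2, a lipoprotein cofactor, by 2.59, and in both old replicate 3 was highest. Idi1, an enzyme of the isoprenoid branch, was more even, at 10.3, 10.6, 9.07, 8.85 and 7.80 CPM in old against 4.54 to 7.06 CPM (median 6.54) in young libraries (0.63 ± 0.15 SE, edgeR adjusted p 0.0421).

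Of 28 lysosomal genes, edgeR called 1, a share near the 3.75% of all genes, while 16 had an unadjusted p under 0.05. DESeq2 called 9 and voom 19, against 1680 and 4048 of all 15987 genes. The gene called by edgeR was Tmem106b, which encodes a lysosomal membrane protein. It fell by 0.39 on the log2 scale (edgeR adjusted p 0.0317), from 107 to 127 CPM in young to 106, 98.7, 78.8, 86.2 and 80.8 CPM in old libraries. Among proteases and their inhibitors, Ctsk, cathepsin K, rose by 3.40 from at most 2.02 CPM in young libraries, and Cstb, cystatin B, by 1.10. Ferritin heavy chain, Fth1, which stores iron, stood at 2122, 3500, 5368, 2837 and 4285 CPM in old and 1806 to 2491 CPM (median 2047) in young libraries, a change of 0.77 ± 0.18 (SE, edgeR adjusted p 0.0365). Only old replicate 1 lay within the young range. Gsr, glutathione reductase, rose by 1.15.

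Growth factor and signalling genes included rises as well as falls, where 3.75% of all genes were called. While Igf1 fell, Igf2r, the receptor that clears IGF2, rose by 1.12 (edgeR adjusted p 0.0497). Of 25 TGF-beta pathway genes 2 were called, Tgfb3 (3.97), a ligand, and Tgfbi (2.87), an induced matrix protein, which stood at 189, 917, 3653, 444 and 1553 CPM in old against 100 to 385 CPM (median 135) in young libraries. Among purinergic genes P2ry1, an ADP receptor at 0 in several young libraries (at most 0.389 CPM), and Nt5e, which makes adenosine, were called higher, and Adora1 and P2rx1 (-0.90) lower. Vegfa, the vascular growth factor, stood at 15.0, 171, 360, 85.4 and 281 CPM in old and 6.54 to 31.0 CPM (median 10.4) in young libraries (3.45 ± 0.65 SE, edgeR adjusted p 0.0193). Pfkp, a phosphofructokinase, rose by 2.50, and Bnip3, a mitophagy receptor, fell by 0.51 on the log2 scale.

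Calls by edgeR among genes of proliferation and senescence were near the 3.75% of all genes. Ccnd2, cyclin D2, was the only call among 27 cell cycle genes. It stood at 4, 12.2, 27, 8.40 and 13.6 CPM in old and 0.617 to 3.88 CPM (median 1.2) in young libraries (3.10 ± 0.53 SE, edgeR adjusted p 0.0151). Of the 27 genes 24 lay below 0, with a median of -0.21, but the median was 0.19 within numbers 1 to 11 and -0.56 within numbers 12 to 24. When old replicates 3 and 5 were left out, 17 lay below 0 and the median was -0.06. Among 23 senescence and p53 genes Sesn2, a stress-induced sestrin, was called (0.57), while 13 had an unadjusted p under 0.05 and DESeq2 called 5 and voom 14. Cdkn1a, which encodes p21, was at 0.68 ± 0.18 (SE, edgeR adjusted p 0.0602). By edgeR 0 of 33 genes of oxidative phosphorylation and 0 of 37 of the cytosolic ribosome were called. An unadjusted p under 0.05 was reached by 5 and 1 of them, and the smallest adjusted p were 0.0547 and 0.239. DESeq2 called 2 and 0 of them, and voom 7 and 2. Over all 15987 genes these tools called 1680 and 4048. Tissue dissociation is known to induce immediate early genes. Of 26 such genes 3 were called by edgeR, Nr4a2 (3.23), Fosl2 (1.28) and Rgs1 (0.76), against 3.75% of all genes. The list median was 0.02.

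A smaller set of rises had a range under 2-fold over the old libraries. Afdn, which encodes the junction protein afadin, stood at 25.7, 26.4, 28.6, 22.5 and 36.6 CPM in old and 4.84 to 12.9 CPM (median 5.55) in young libraries. All old libraries lay near one level above the young ones, at 2.09 ± 0.22 (SE, edgeR adjusted p 0.00301). Abcg3, an ABC transporter, stood at 14.8, 14.8, 15.7, 15.5 and 22.7 CPM against 6.70 to 9.33 CPM (median 7.11), a change of 1.16 ± 0.13 (SE, edgeR adjusted p 0.00437). Crlf2, a subunit of the receptor for thymic stromal lymphopoietin, rose by 0.76 and Stk26, a kinase, by 0.73, each without overlap of the groups. Stk26 lay between 7.97 and 8.34 CPM in the old libraries and between 3.93 and 5.84 CPM in the young ones. These genes, and those of the next paragraph, were chosen after their values were seen.

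Other rises ran against the monocyte sum, with the highest values in old replicates 1 and 4. Dlg5 (chr14:24133953-24245920), a scaffold protein of cell junctions, stood at 18.9, 8.44, 4.04, 14.4 and 10.1 CPM in old and 0.823 to 4.19 CPM (median 1.48) in young libraries. Old replicate 3 alone lay within the young range, and the change was 2.74 ± 0.36 (SE, edgeR adjusted p 0.00746). St8sia6, a sialyltransferase, stood at 40.0, 30.4, 12.6, 38.0 and 24.1 CPM against 7.32 to 17.5 CPM (median 9.26), and Naalad2, a peptidase, at 81.9, 62, 31.4, 91.1 and 48.7 CPM against 14.6 to 37.4 CPM (median 23.1). They rose by 1.38 ± 0.21 and 1.43 ± 0.23 (SE, edgeR adjusted p 0.00986 and 0.0110). Ildr2 and Rxrg, which encodes a retinoid X receptor, rose by 1.61 and 1.60, and old replicate 3 was lowest in both. Ildr2 also differed between the runs in young libraries, at 46.0 to 49.6 CPM in numbers 1 to 11 and 12.9 to 16 CPM in numbers 12 to 24. Only 26 of the 480 rises (5.42%) were highest in old replicate 1 or 4, against 43.3% of all genes tested.

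Few calls outlasted changes of the libraries. Without old replicates 3 and 5, the libraries with the highest monocyte sums, 21 of 16983 genes were called (19 higher, 2 lower). All 21 were among the 599. Old replicate 2, with a sum of 3672 CPM and above every young library, stayed in that fit. The fit also held fewer libraries, and leaving out 1 of young replicates 4 to 7 already gave only 61 to 80 calls. The part of the smaller number of libraries was not tested. With the log2 monocyte sum as a term beside the run, 60 genes were called (49 higher, 11 lower), 45 of them among the 599. That sum did not follow Ly6c2 or Ccr2 across the young libraries of numbers 12 to 24. In both fits, which were added after the data were seen, 16 of the 599 remained called (14 higher, 2 lower), and 14 of these are named above. The falls were Cd5l, at -2.46 and -2.88 (edgeR adjusted p 0.0434 and 0.0104), and Rgs7bp, at -2.06 and -2.35 (0.0184 and 0.0104). The rises were Atp8b4, Padi4, Cxcl13, Osm, Afdn, Abcg3, Crlf2, Dlg5, St8sia6, Naalad2, Ildr2 and Rxrg. Afdn was at 1.74 and 1.94 (adjusted p 0.0135 and 0.0137) and Dlg5 at 2.85 and 3.12 (0.0262 and 0.0104). Of the 599, 58 (51 higher, 7 lower) were called in each of the 12 fits that left out 1 library.

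The sign of the called genes within a run is no independent check, since a shared age term over both runs selected them. Of the 596 called genes with a value in numbers 1 to 11, all 596 had the same sign there as in the fit of both runs, in which those libraries had a part. By edgeR, the 5 libraries of the lower numbers alone gave 0 calls (0.00%), and an unadjusted p under 0.05 was reached there by 486 genes. The 7 libraries of the higher numbers gave 1941 calls (12.1%), 548 of them among the 599. Sizes differed: Ly6c2 rose by 3.87 in the lower and 8.06 in the higher numbers, while Adora1 stood at -1.03 and -1.06. When the interaction of age and run was tested, edgeR called 0 genes (0.00%). Its smallest adjusted p was 0.202, and 1576 genes had an unadjusted p under 0.05. For the interaction DESeq2 called 201 genes and voom 0, and edgeR called 31 without old replicate 4.

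**Figure D5:**
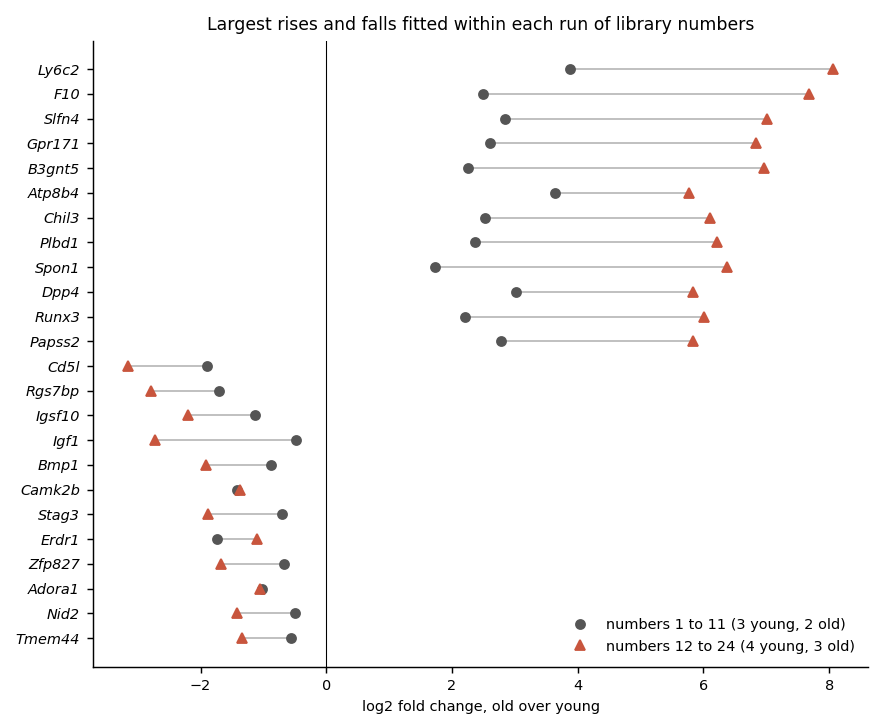
Log2 fold change, old over young, of the 12 genes with the largest rises and the 12 with the largest falls, fitted within library numbers 1 to 11 (circles) and 12 to 24 (triangles). The genes were chosen to have the same sign in both runs, so only the sizes are to be compared, with Ly6c2 at 3.87 and 8.06.

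Lists of non-myeloid cells held 1 call or none each by edgeR, where 3.75% of all genes were called. Flt1, a VEGF receptor, was the only call among 14 endothelial and mural genes, at 16.7, 15.9, 14.3, 15.1 and 20.4 CPM in old and 4.38 to 13.9 CPM (median 7.60) in young libraries (1.03 ± 0.23 SE, edgeR adjusted p 0.0330). Mbp, myelin basic protein, was the only call among 9 oligodendrocyte genes, at 45.2, 55.1, 65.4, 47.8 and 54.8 CPM against 28.9 to 44.1 CPM (median 39.2), a change of 0.49 ± 0.11 (SE, edgeR adjusted p 0.0328). Mog, which the same cells express, was at 0 in all 5 old libraries and at or under 0.62 CPM in young ones. Of 24 T and NK cell genes listed, only 6 were tested. The 23 with a value summed to 28.1, 55.3, 134, 36.4 and 84.4 CPM in old replicates 1 to 5, the library order of the monocyte sum. In young libraries they summed to 20.6 to 53.7 CPM. By edgeR 0 of 6 T and NK cell genes, 5 B and plasma cell genes, 13 astrocyte genes, 7 neuron genes and 6 red blood cell genes were called, with 1, 2, 3, 2 and 0 at an unadjusted p under 0.05. DESeq2 called 1, 2, 1, 0 and 0 of them, and voom 1, 2, 5, 3 and 0. Over all 15987 genes these tools called 1680 and 4048.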

How the data were processed

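The authors deposited 1 table per library with expected counts and TPM for 53090 genes. Reads were aligned and counted with STAR and RSEM on GRCm38, per the submitters' processing notes. Per the file headers, the expected counts are RSEM estimates that need not be whole, and 87.26% of them were whole within a tolerance of 1e-06. They were rounded to whole numbers. The deposited TPM values served only as a second scale in the tables and gave no printed value. RSEM divides reads among similar genes, so that genes with near-identical relatives, overlapping genes and antisense genes are uncertain. Per the labels' protocols, input was 2.4 to 147 ng of RNA, mRNA was selected by its poly(A) tail, and reads were single, of 50 nt.

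In R 4.3.3, edgeR 4.0.16 (filterByExpr, TMM, glmQLFit, glmQLFTest) was fitted to the 12 libraries with group and run of library numbers as terms, and p-values were adjusted over 15987 genes by Benjamini-Hochberg at 0.05. The age by run interaction was fitted likewise. Fold changes are log2 values with SE, and CPM are scaled by TMM. Coordinates come from GENCODE M21 for identical identifier versions, and promoters from RefSeq. In simulated counts (15241 genes, 100 changed 2-fold and 100 changed 4-fold), the fit recovered 82% and 98% of them with 8 false calls. The changed genes had a mean of at least 5 CPM. Counts were drawn for each gene on its own, without variation that genes share within a library. These shares are therefore no measure of the sensitivity in the real libraries.

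Named were up to 12 rises and 12 falls of the largest size among called protein-coding genes, without predicted ones, of mean CPM of at least 5 and of the same sign in each run (450 genes met this), then called or abundant members of 43 gene lists, Csf1r and cell type markers. The members and lists were chosen with earlier results of these data known. Alternatives were 2 other scalings (RLE and upper-quartile), keeping every gene, keeping only genes of mean CPM of 5 or more, 2 other tools (DESeq2 1.42.0, and voom of limma 3.58.1 with sample weights), no run term, all 23 libraries, each run alone, a test against a 1.5-fold change, robust dispersion and leaving out each library. A fit without old replicates 3 and 5 and one with the log2 summed monocyte level as a term were chosen after seeing the data. A few genes of these lists are not reported here.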

Additional observations from a re-analysis of the deposited data

Results flagged for a closer look

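In groups of 4 to 10 libraries, 22 of 270 groups held a value of a named gene that lay far from the rest by Dixon's criterion on the log2 scale, a criterion that chance meets in about 1 of 20 groups. Young replicate 3 was the high library in 13 of them. It held 7.90 CPM of Ly6c2, 3.28 of Gpr171, 154 of Chil3, 20.4 of Plbd1, 16.7 of Runx3 and 46.6 of Ccr2. The same library held 15.4 CPM of Clec12a, 121 of Lgals3, 24.2 of Cfp, 385 of Tgfbi, 15.1 of Pfkp, 32.2 of Gsr and 4846 of C1qb. The next highest young libraries were at 1.24 CPM of Ly6c2 and 10.3 CPM of Chil3. Young replicate 3 was also the lowest young library for Zfp827, at 4.2 CPM.

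Other young libraries stood apart for single genes. Bmp1 was lowest in young replicate 1 at 10.1 CPM, Mmp8 in young replicate 1 at 0.233 CPM, and Lyve1 in young replicate 2 at 1.05 CPM. Rgs1 was lowest in young replicate 2, at 329 CPM. Among old libraries, Rgs7bp was lowest in replicate 5 at 1.87 CPM, S100a9 in replicate 2 at 21 CPM and Fcrls in replicate 3 at 1049 CPM, while Abcg3 was highest in replicate 5 at 22.7 CPM.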

How the results depend on the processing

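The count of 599 called genes stayed within 1.5 times under RLE and upper-quartile scaling, with every gene kept or only genes of mean CPM of 5 or more, without the run term, robust dispersion and the fits of all 23 libraries (487 to 811). It was 1680 by DESeq2, 4048 by voom, 1941 within numbers 12 to 24, 0 within numbers 1 to 11 and 67 against a 1.5-fold change. Leaving out 1 library gave 61 to 1439 genes. The counts were 1439, 100, 345, 1009 and 109 for old replicates 1 to 5 left out in turn, and 351, 1087, 80, 61, 80 and 71 for young replicates 2 to 7. Without old replicates 3 and 5 it was 21 and with the monocyte sum as a term 60. Higher genes were 80.1% of the calls, 66.9% by DESeq2, 71.9% with upper-quartile scaling and 54.8% by voom. The difference between runs had 0 calls, 201 by DESeq2, and 0 to 31 when 1 library was left out (1 without old replicate 2, 31 without old replicate 4, 2 without young replicate 2). No paired analysis was possible because library numbers are unique and replicate numbers were given in accession order.

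Of the 110 called genes named, those that lost the call did so in the same direction. Reversals occurred in genes that were not called: H2-DMa with upper-quartile scaling (-0.0047), H2-Oa without old replicates 3 and 5 (0.0098) and with the monocyte term (0.11), Lyve1 within numbers 12 to 24 (-0.68), Isg15 and Irf7 within numbers 1 to 11 (-0.28 and -0.065), and Pf4, Apoe and Tmem119 with the monocyte term (-0.082, -0.17 and 0.039). The cause was not tested. In simulated counts 82% of 2-fold changes were recovered, and smaller changes were not simulated. The simulation held no variation shared by genes within a library, so that its share cannot be carried over to the real libraries.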
